A study of Mus musculus with 40 samples.

Results

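Transcripts that mark fat cells were followed in whole mouse EDL (extensor digitorum longus), a hindlimb muscle built mostly of fast fibers. The 10 genes were Adipoq, Fabp4, Plin1, Cfd, Retn, Lep, Cidec, Car3, Pck1 and Cyp2e1, chosen by name as genes that fat cells express. They were 10 of the 22844 genes listed, and all 10 passed the filter on low counts that left 13543 genes for testing. The mice carried floxed Tsc1 alleles (strain label Tsc1tm1Djk/J). TSCmKO mice also expressed Cre recombinase and lacked Tsc1, an inhibitor of the kinase complex mTORC1, in muscle fibers. Control littermates (CON) were Tsc1fl/fl without Cre. Mice were 3 or 9 months old (3m and 9m) and received intraperitoneal vehicle or rapamycin (RM), an mTORC1 inhibitor, for 3 days. The labels give 4 mg per kg, and the dose is uncertain because the study text states a higher one. The 8 groups held 5 mice each, with 1 library of polyadenylated RNA per mouse. Recombination was aimed at muscle fibers, whereas rapamycin was given systemically. The promoter that drives Cre and the sex of these mice were not given in the sources used here.

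Adipocytes store fatty acids as triglyceride in a single large lipid droplet and release hormones into the blood. In skeletal muscle they lie between fibers and fascicles and along the surface, where they arise from fibro-adipogenic progenitors. Perilipin 1 (Plin1) and CIDEC (Cidec) coat the lipid droplet, and adiponectin (Adipoq), leptin (Lep), resistin (Retn) and adipsin (Cfd, complement factor D) are secreted. These 6 are largely restricted to fat among the tissues of a hindlimb. Fabp4, a fatty acid carrier, is also expressed by capillary endothelium and macrophages, and Car3 (carbonic anhydrase 3) is also a protein of muscle fibers. Pck1 makes glycerol precursors for triglyceride in fat and glucose in liver and kidney, and Cyp2e1 is a cytochrome P450 best known from liver.

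Levels are given as library-scaled read counts (CPM, with TMM factors) when libraries are compared, and as TPM, which also divides by transcript length, when genes are compared. Total counts ranged from 8883870 to 35224669 per library. Tsc1 lay at 17.8 to 35.8 CPM in the TSCmKO libraries and at 51.3 to 134 CPM in the CON libraries, so that no library went against its genotype label. The muscle label was met by genes of fast fibers, 12 of which summed to 180730.4 to 258787 TPM per library. By the labels, inserts of 3-month libraries averaged 175 to 239 nt and those of 9-month libraries 223 to 308 nt, so that age and library preparation cannot be told apart. In whole muscle, fewer adipocytes and less RNA per adipocyte also cannot be told apart.

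The 10 transcripts spanned a wide range of levels. On the TPM scale, Car3 averaged 1892 and Fabp4 543 over the 40 libraries, above 99.8% and 99.1% of all listed genes. Cfd followed at 39.9 TPM, Cyp2e1 at 9.84, Adipoq at 8.92, Retn at 5.58, Cidec at 5.13, Plin1 at 4.08 and Pck1 at 2.66. Lep was lowest with 0.802 TPM and was listed at 0 counts in 3 of 40 libraries. Adipoq and Plin1 had at least 6 and 11 counts in every library, which does not by itself show their cell of origin. Their abundance set Car3 and Fabp4 apart from the 6 restricted markers. Those 6 together contributed 6.37 to 239 TPM per library.

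The members lie on several chromosomes of GRCm38 (GENCODE M21). Adipoq (ENSMUSG00000022878, chromosome 16, 23146536 to 23158028, plus strand), Lep (ENSMUSG00000059201, chromosome 6, 29060220 to 29073877, plus strand) and Car3 (ENSMUSG00000027559, chromosome 3, 14863512 to 14872523, plus strand) carried the differences described here between genotypes. Fabp4 (ENSMUSG00000062515, chromosome 3, 10204088 to 10208576, minus strand) shares its chromosome with Car3, and Lep with Cidec (ENSMUSG00000030278, chromosome 6, 113424634 to 113435760, minus strand). Plin1 (ENSMUSG00000030546, chromosome 7, 79720218 to 79732903, minus strand) and Cyp2e1 (ENSMUSG00000025479, chromosome 7, 140763739 to 140774987, plus strand) share another. Retn (ENSMUSG00000012705, chromosome 8, 3655770 to 3660110, plus strand), Cfd (ENSMUSG00000061780, chromosome 10, 79890853 to 79892655, plus strand) and Pck1 (ENSMUSG00000027513, chromosome 2, 173153048 to 173159273, plus strand) complete the set. No other annotated gene overlapped any of them on either strand. Strings of 31 bases, the unit with which reads were assigned, were shared with other protein-coding genes for 5.36% of those of Cyp2e1, 2.71% of Retn, 1.44% of Plin1 and 0.496% of Pck1, and for none in the other 6 genes.

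Because 8 of the members moved together from library to library, the sequence before their start sites is shown for Adipoq and Lep, the pair called as lower in 9mTSCmKO in the common fit (the call of Adipoq was lost in 8 of 10 fits that left out a library), and for Pck1, which is induced through cyclic AMP in liver. Bases are from RefSeq (GRCm38.p6), given from 5′ to 3′ on the strand of the gene and ending where the annotated gene begins (chr16:23146286-23146535, chr6:29059971-29060219 and chr2:173152823-173153047, all plus strand). Capitals mark matches to the motifs searched on both strands, in windows of 250 bases: TATAAA (the TATA box), CCAAT (the CCAAT box), TTGCNNAA (a form bound by C/EBP factors), AGGTCA (a single nuclear receptor element), its direct repeat with 1 base between (the form bound by PPARγ with RXR) and ACGTCA (the core of the cyclic AMP response element).
Adipoq: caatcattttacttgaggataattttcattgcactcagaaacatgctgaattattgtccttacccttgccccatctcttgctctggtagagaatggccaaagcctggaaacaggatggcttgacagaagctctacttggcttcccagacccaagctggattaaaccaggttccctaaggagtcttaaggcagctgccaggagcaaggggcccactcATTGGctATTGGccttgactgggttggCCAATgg
Lep: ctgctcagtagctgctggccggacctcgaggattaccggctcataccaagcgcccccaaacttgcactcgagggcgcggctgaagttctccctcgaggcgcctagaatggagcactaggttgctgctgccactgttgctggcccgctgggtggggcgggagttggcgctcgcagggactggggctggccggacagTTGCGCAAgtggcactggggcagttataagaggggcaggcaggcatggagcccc
Pck1: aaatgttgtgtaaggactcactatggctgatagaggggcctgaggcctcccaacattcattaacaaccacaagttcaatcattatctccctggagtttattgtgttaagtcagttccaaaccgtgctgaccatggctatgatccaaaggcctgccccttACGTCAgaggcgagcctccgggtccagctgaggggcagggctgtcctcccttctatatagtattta
CCAAT, on either strand, occurred 3 times before Adipoq, within 34 bases of the start, and in the window of Cyp2e1, 210 and 68 bases before its RefSeq start. It was in 33.8% of the 32851 promoters of the table. TTGCNNAA began 54 bases before the end of the stretch printed for Lep. It was also found in the window of Plin1 and in 1 of the windows of Cidec, one that lies inside that gene, and in 9.56% of all promoters. ACGTCA began 66 bases before the end of the stretch printed for Pck1, which is 91 bases before the start site of RefSeq, 25 bases inside the annotated gene. It was present in 6.47% of all promoters. TATAAA occurred in the window of Cyp2e1 only, 31 bases before a RefSeq start that lies 80 bases inside the annotated gene, with a share of 12.4% over all promoters. AGGTCA was in none of the 9 windows of the 8 members with an entry and in 14.0% of all promoters, and the direct repeat in 0.0335%. The table held no entry for Fabp4 and Car3.

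Mice of the same group differed widely in the adipocyte markers. In 3mCON, replicate 3 was the highest library for all 10 members, and in 3mTSCmKO replicate 4 was. In 9mTSCmKO+RM, replicate 4 was highest for 9 of 10, in 9mCON replicate 2 for 8, and in 3mCON+RM replicate 4 and 9mCON+RM replicate 3 for 7 each. The summed TPM of the 6 restricted markers in 3mTSCmKO ranged from 42.4 to 239 with a median of 65.3. In 9mTSCmKO+RM, replicate 4 held 7.41 times the median of its group. The summed level ran from 37.1 to 61.6 TPM in 9mCON and from 10.3 to 29.2 TPM in 9mTSCmKO. When the 8 groups were ordered by mean CPM for each member, the ranges of all 70 pairs of neighbours overlapped. The gap between means exceeded the larger SD of the pair in 3 of the 70, namely Cidec in 9mCON over 9mCON+RM, Cyp2e1 in 9mCON over 9mTSCmKO and Car3 in 9mTSCmKO+RM over 3mTSCmKO+RM.

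**Figure D1:**
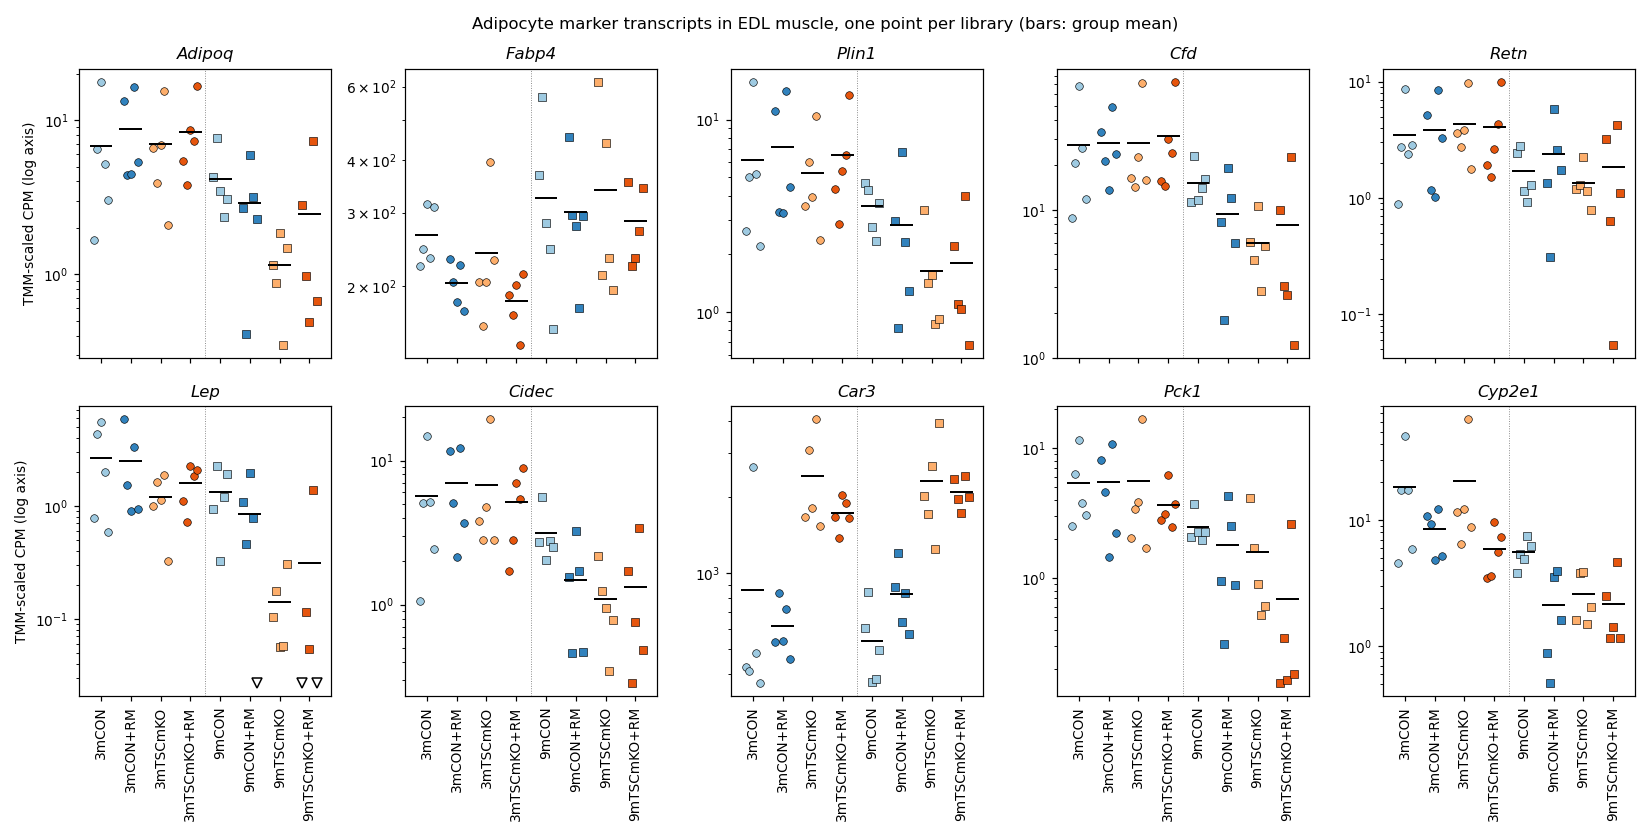
TMM-scaled CPM (log axis) of each member in all 40 libraries, in 8 groups of 5 (circles 3 months, squares 9 months), with bars at group means and open triangles for libraries at 0 counts. A single library lies far above its group in several panels, for example Car3 at 2619 CPM in 3mCON.

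These excursions were shared. After subtraction of group means, the 6 restricted markers had a median pairwise Pearson's r of 0.84 over the 40 libraries (15 pairs, 0.59 to 0.93). Spearman's rho between Adipoq and Plin1 was 0.84 and their r 0.87. Pck1 and Cyp2e1 followed the mean of the 6 with r = 0.82 and 0.81. Car3 and Fabp4 followed it less closely, at r = 0.49 and 0.33. Without the highest library of each group, r was 0.67 for Pck1, 0.70 for Cyp2e1, 0.19 for Car3 and 0.14 for Fabp4, and the median among the 6 was 0.65. All points share the tissue, and values of 1 library share its depth and scaling, so these correlations are descriptions.

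**Figure D2:**
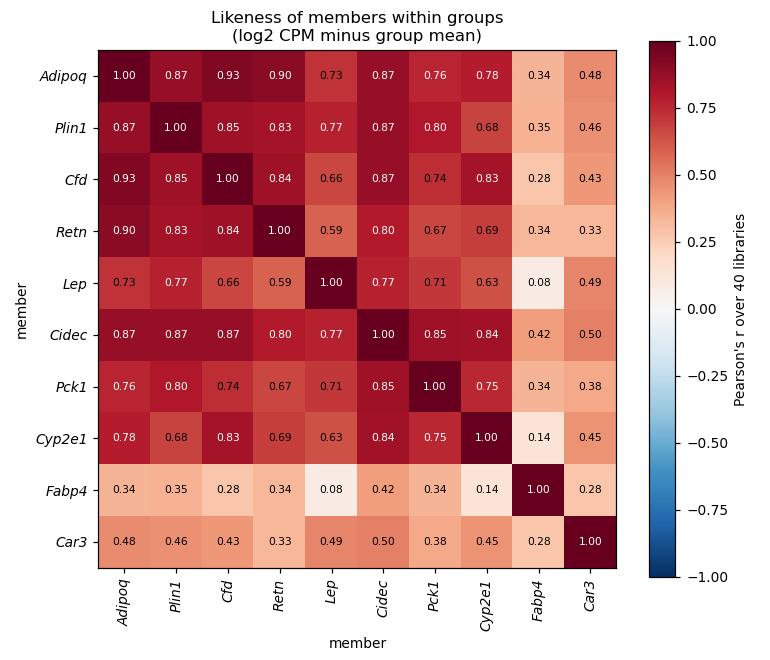
Pearson's r between members over 40 libraries, computed on log2(CPM + 0.5) minus the group mean. Adipoq, Plin1, Cfd, Retn, Lep, Cidec, Pck1 and Cyp2e1 form a block of high values, and the row of Fabp4 runs from 0.08 with Lep to 0.42 with Cidec.

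Among the 13533 tested genes that were not members, 22 reached r of 0.7 with the mean of the 6. The nearest was Hp, the haemoglobin-binding protein haptoglobin, with r = 0.92 and 8.14 TPM. It was followed by Scd1, the stearoyl-CoA desaturase (0.88), Tmem45b (0.87), the cysteine dioxygenase Cdo1 (0.86), the glutamine transporter Slc1a5 (0.86), the galectin Lgals12 (0.83) and A530016L24Rik (0.82). Prkar2b, a regulatory subunit of protein kinase A (0.77), the paraoxonase Pon1 (0.77) and the mitochondrial citrate carrier Slc25a1 (0.76) completed the 10. Of these, Hp (log2 fold change -2.21, adjusted p = 0.0148), Slc1a5 (-0.95, adjusted p = 0.00381) and Pon1 (-3.20, adjusted p = 0.00236) were lower in 9mTSCmKO than in 9mCON by edgeR's quasi-likelihood test.

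The first comparison asked whether loss of Tsc1 in muscle fibers goes with a different level of these transcripts at 9 months. Values are given for replicates 1 to 5 in order. Lep, the satiety hormone, stood at 0.945, 2.26, 0.325, 1.20 and 1.91 CPM in 9mCON and at 0.104, 0.177, 0.0559, 0.0577 and 0.306 CPM in 9mTSCmKO. The groups did not overlap, although the latter rested on 2, 3, 1, 1 and 7 counts. Lep fell by 3.14 ± 0.893 (SE) on the log2 scale (adjusted p = 0.00548, n = 5 per group).

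Adipoq, which encodes the insulin-sensitizing hormone adiponectin, stood at 4.25, 7.70, 3.49, 2.35 and 3.10 CPM in 9mCON and at 1.14, 0.883, 1.84, 0.346 and 1.49 CPM in 9mTSCmKO. Every TSCmKO library was below every control library. The log2 fold change was -1.84 ± 0.72 (adjusted p = 0.0425), a 3.57-fold lower level. Car3 went the other way, from 607, 842, 369.8, 381 and 497 CPM to 2026, 1707, 2654, 1248 and 3929 CPM, again without overlap, with a log2 fold change of 2.10 ± 0.40 (adjusted p = 8.72e-05, 4.29-fold). In all, 2 of 10 members were lower, where 18.9% of all tested genes were, and 1 was higher, where 19.1% were.

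The other members did not pass the test at 9 months in the fit over all groups. The serine protease Cfd lay at 11.2, 23.1, 11.7, 14.0 and 16.1 CPM in 9mCON and at 6.03, 4.59, 10.6, 2.83 and 5.73 CPM in 9mTSCmKO. These ranges did not overlap either, but the log2 fold change of -1.35 ± 0.66 gave an adjusted p of 0.107. For the lipid droplet proteins, Cidec had -1.49 ± 0.72 (adjusted p = 0.0989) and Plin1 -1.12 ± 0.60 (adjusted p = 0.140), with overlapping ranges. Values were -1.12 ± 0.61 for Cyp2e1, -0.62 ± 0.71 for Pck1, -0.36 ± 0.75 for Retn and 0.07 ± 0.28 for Fabp4 (adjusted p of 0.150 to 0.870). The median log2 fold change was -1.12 over the 10 members and -0.02 over all tested genes. Omitting single libraries took the call from Adipoq in 8 of 10 fits (log2 fold change -1.51, adjusted p = 0.116 without 9mCON replicate 2), and in none of 10 from Lep or Car3. With only these 2 groups in the fit, 5 members were called, while 2647 genes in place of 5133 were called over all genes. Cfd (-1.32, adjusted p = 0.00668), Cidec (-1.46, 0.0247) and Cyp2e1 (-1.09, 0.0213) were lower there beside Adipoq, Car3 was higher, and Lep was below the filter. Without the filter on low counts the adjusted p of Adipoq was 0.0646. On log2(TPM + 1), where low genes are compressed, Lep was at -0.63 (limma, adjusted p = 0.0785).

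Markers of other cell types moved in the same comparison. Of 12 markers of fibro-adipogenic progenitors, 9 were lower in 9mTSCmKO and none was higher (median log2 fold change -0.94), and their summed level was 1004 to 2214 TPM in 9mCON and 428 to 919 TPM in 9mTSCmKO. Of 8 tendon markers, 5 were lower (median -1.82, summed level 61.4 to 392 against 45.6 to 92.9 TPM). Of 9 endothelial markers, 3 were lower (median -0.40; 206 to 351 against 183 to 302 TPM). All 7 slow fiber genes were higher (median 3.48; 150.3 to 225 against 1625 to 4055 TPM). No marker in these lists was at 0 in either group, and the part of these shifts in the adipocyte markers was not tested.

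At 3 months, Car3 was the only member with a difference between genotypes. It stood at 424, 409, 2619, 482 and 369 CPM in 3mCON and at 1674, 3076, 1810.0, 4067 and 1532 CPM in 3mTSCmKO, and the groups overlapped because of 3mCON replicate 3. The log2 fold change was 1.5 ± 0.40 (adjusted p = 0.00554), so that 1 of 10 members was higher, where 11.4% of all genes were. Without 3mCON replicate 3 it was 2.53, and with a spread estimated from these 2 groups alone the adjusted p was 0.124. For Lep the difference of -1.16 ± 0.65 did not pass (adjusted p = 0.221), with 0.784, 4.37, 5.49, 1.99 and 0.591 CPM in 3mCON and 0.988, 1.63, 1.13, 1.89 and 0.324 CPM in 3mTSCmKO. The other 8 members lay between -0.24 for Plin1 and 0.30 for Retn, and no member was lower at the threshold.

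**Figure D3:**
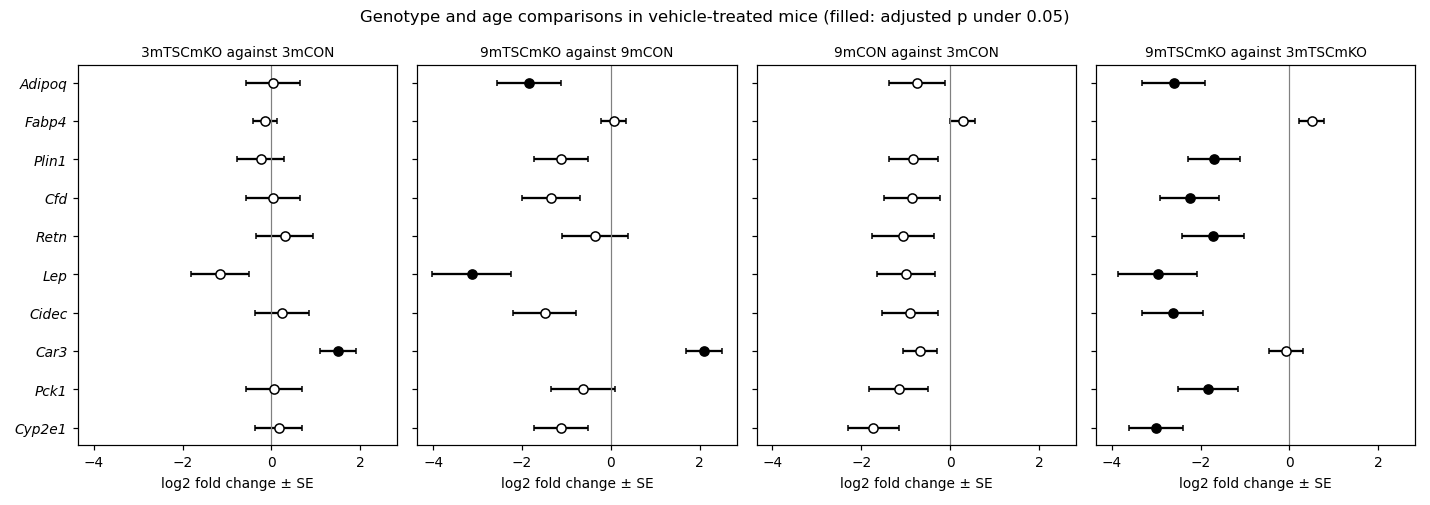
Log2 fold changes ± SE of the 10 members by edgeR in the genotype and age comparisons of vehicle-treated mice, filled where the adjusted p was under 0.05 (n = 5 per group). Car3 is to the right of 0 in both genotype panels, and the panel for age in TSCmKO has 8 filled points to the left. The panels share groups.

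Car3 was higher in TSCmKO under rapamycin as well. In rapamycin-treated mice, Car3 stood at 878, 1199, 640.4, 837 and 576 CPM in 9mCON+RM and at 2360.4, 1969, 1723, 2433 and 1998 CPM in 9mTSCmKO+RM (1.34 ± 0.39, adjusted p = 0.0121). At 3 months it stood at 534, 834, 537, 719 and 458 CPM in 3mCON+RM and at 1675, 1372, 2037, 1901 and 1653 CPM in 3mTSCmKO+RM (1.49 ± 0.40, adjusted p = 0.0114). The genotypes did not overlap in either. The 7 slow fiber genes also summed higher at 9 months (141 to 469 TPM in 9mCON+RM, 903 to 1663 TPM in 9mTSCmKO+RM). At 3 months their sums overlapped (103 to 314 TPM in 3mCON+RM, 176 to 814 TPM in 3mTSCmKO+RM). Their part in the level of Car3 was not tested. Car3 was the only member called in these comparisons, where 11.3% of all genes were higher at 9 months and 5.67% at 3 months. Without 9mTSCmKO+RM replicate 4, Lep (adjusted p = 0.0120, with 0, 2, 1 and 0 counts left in the group, too few for a fold change) and Pck1 (-2.96, adjusted p = 0.0354) were also called, as lower, at 9 months.

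The level of Car3 was then set beside that of the adipocyte-restricted markers. With the mean log2 CPM of the 6 as a term in the fit, a setting chosen after the data were seen, Car3 was higher in TSCmKO by 2.57 at 9 months (adjusted p = 1.14e-06) and by 1.69 at 3 months (adjusted p = 0.000391), and under rapamycin by 1.44 and 1.51. Each of these 4 differences was at least as large as without the term. At 9 months with vehicle that direction followed from the setting itself. The 6 were lower in 9mTSCmKO (median log2 fold change -1.42), and Car3 rose with them within groups (r = 0.49). The cell source of Car3 was not tested. The library with the highest summed level of the 6 was also the highest in Car3 in 4 of the 8 groups (3mCON, 3mTSCmKO, 9mCON and 9mTSCmKO+RM) and was not in the other 4. In 9mCON+RM, replicate 2 was highest in Car3 and lowest in that sum.

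**Figure D4:**
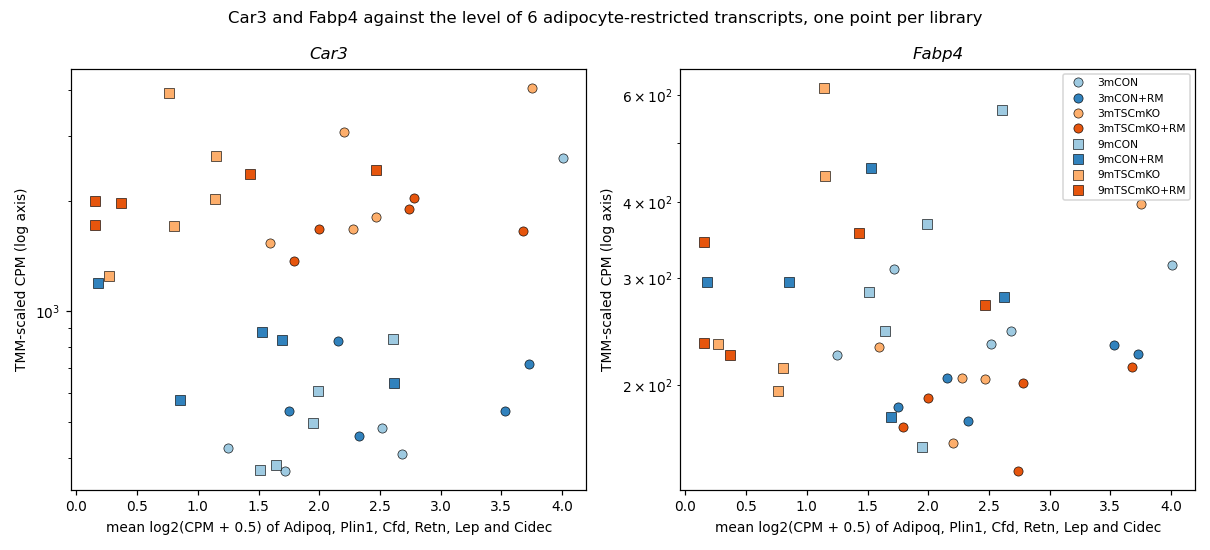
CPM (log axis) of Car3 and Fabp4 against the mean log2(CPM + 0.5) of the 6 adipocyte-restricted markers, 1 point per library. For Car3 the TSCmKO libraries (1248 to 4067 CPM) lie above all CON libraries except 3mCON replicate 3 at every level of these markers, and for Fabp4 the groups mix.

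Fabp4 passed the threshold in none of the 12 pairwise comparisons. With the mean of the 6 restricted markers as a term, 9mTSCmKO against 9mCON was at 0.30 (adjusted p = 0.424). With the same term, the age comparison within TSCmKO gave more Fabp4 at 9 than at 3 months, by 0.85 with vehicle (adjusted p = 0.0273) and by 0.99 with rapamycin (adjusted p = 0.0232). The 6 were themselves lower at 9 months there (median log2 fold change -2.43 and -1.93). As Fabp4 follows them within groups (r = 0.33, and 0.14 without the highest libraries), the term by itself adds to this difference. These calls therefore do not show an age difference in Fabp4. Group means ran from 184 ± 27.3 CPM (SD) in 3mTSCmKO+RM to 340.0 ± 184 CPM in 9mTSCmKO. In the 9mTSCmKO libraries it stood at 616, 213, 441, 234 and 196 CPM and in 9mCON at 369, 566, 284, 245 and 158 CPM. The library 9mTSCmKO replicate 1 had the highest Fabp4 of all 40 and 1.14 CPM of Adipoq. Within groups, Fabp4 followed the endothelial markers with r = 0.08 and the macrophage markers with -0.01. Higher values were found for genes of lipolysis and the lipid droplet (0.64), paralogs of the members (0.63), further adipocyte markers (0.43) and Schwann cell and nerve markers (0.34). With the difference in level between the 3386 genes with the shortest and the 3386 with the longest transcripts, the r of Fabp4 was 0.66. For Lep, Adipoq, Plin1, Cfd, Retn, Cidec, Cyp2e1 and Car3 it was 0.02 to 0.33, and for Pck1 -0.02. That difference deviated from the group mean by -0.41 to 0.58 on the log2 scale, and its part in the level of Fabp4 was not tested.

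The short rapamycin treatment went with 1 difference among the members. In 3mTSCmKO, Cyp2e1 stood at 11.5, 6.47, 12.3, 63.1 and 8.78 CPM with vehicle and at 3.48, 3.57, 9.65, 5.61 and 7.29 CPM with rapamycin, and the groups overlapped. The log2 fold change was -1.81 ± 0.56 (adjusted p = 0.0168), where 13% of all genes were lower. Without 3mTSCmKO replicate 4 it was -0.72 with an adjusted p of 0.331, so that the call rested on that library. In 3mCON, Cyp2e1 stood at 4.54, 17.5, 46.2, 17.5 and 5.91 CPM with vehicle and 10.7, 9.28, 4.83, 12.3 and 5.23 CPM with rapamycin (-1.11 ± 0.56, adjusted p = 0.568), and in 9mCON the value was -1.46 ± 0.65 (adjusted p = 0.152).

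No member passed the threshold for rapamycin in 9mTSCmKO, where 32.6% of all genes did, in 9mCON (11.8%) or in 3mCON (0.679%) by edgeR. At an unadjusted p under 0.05 there were 0, 1 and 0 members, and DESeq2 also called none. In 9mTSCmKO, Adipoq had a log2 fold change of 1.05 ± 0.75 and Lep of 0.98 ± 1.09, with 0, 0.115, 0.0544, 1.38 and 0 CPM of Lep in 9mTSCmKO+RM. Replicate 4 of that group was at 7.38 CPM of Adipoq while the other 4 libraries lay at 0.489 to 2.82 CPM. Pck1 stood at 4.16, 1.71, 0.894, 0.519 and 0.612 CPM in 9mTSCmKO and at 0.156, 0.346, 0.163, 2.62 and 0.183 CPM in 9mTSCmKO+RM (-1.23 ± 0.83). Without replicate 4 of the treated group, Pck1 was lower at -2.84 (adjusted p = 0.0271).

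Between 3 and 9 months, 8 of 10 members were lower in vehicle-treated TSCmKO mice, where 18.3% of all genes were. Among the secreted products, Adipoq stood at 6.59, 3.92, 6.94, 15.5 and 2.09 CPM in 3mTSCmKO, above all values in 9mTSCmKO given before (-2.61 ± 0.70, adjusted p = 0.00400). Lep stood at 0.988, 1.63, 1.13, 1.89 and 0.324 CPM in 3mTSCmKO and was also lower at 9 months without overlap (-2.96 ± 0.89, adjusted p = 0.00860). Cfd, at 16.4, 14.2, 22.8, 71.2 and 15.8 CPM in 3mTSCmKO, showed the same separation (-2.24 ± 0.66, adjusted p = 0.00832). Retn, at 3.62, 2.74, 3.80, 9.69 and 1.76 CPM in 3mTSCmKO and 1.20, 1.29, 2.23, 1.15 and 0.787 CPM in 9mTSCmKO, overlapped and was at the edge of the threshold (-1.72 ± 0.70, adjusted p = 0.0498).

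The lipid droplet protein Cidec stood at 3.82, 2.81, 4.78, 19.4 and 2.81 CPM in 3mTSCmKO and at 2.18, 1.24, 0.949, 0.346 and 0.787 CPM in 9mTSCmKO (-2.63 ± 0.69, adjusted p = 0.00331), without overlap. Plin1 stood at 3.56, 6.01, 3.96, 10.5 and 2.38 CPM and at 3.38, 1.41, 1.56, 0.866 and 0.919 CPM, which overlapped (-1.71 ± 0.58, adjusted p = 0.0211). Of the enzymes, Cyp2e1 at 1.61, 3.82, 3.85, 1.5 and 2.06 CPM in 9mTSCmKO lay below all 3mTSCmKO libraries (-3.01 ± 0.61), and Pck1 overlapped (-1.84 ± 0.68, adjusted p = 0.0319). The exceptions were Car3 at -0.07 ± 0.39 (adjusted p = 0.902) and Fabp4 at 0.50 ± 0.28 (adjusted p = 0.155).

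Without 3mTSCmKO replicate 4, 4 of these 8 members were still lower, Adipoq, Lep, Cidec and Cyp2e1, and Fabp4 was called as higher at 9 months (0.79, adjusted p = 0.0276). Plin1 (adjusted p = 0.105), Cfd (0.0671), Retn (0.225) and Pck1 (0.380) were no longer called. Leaving out 9mTSCmKO replicate 4 or 9mTSCmKO replicate 5 also left 5 calls, all lower, with Plin1, Retn and Pck1 lost in both (adjusted p of 0.0504 to 0.0979). With insert size as a term, 2 members were called, Cidec (-2.80, adjusted p = 0.0467) and Cyp2e1 (-2.88, adjusted p = 0.0194), and over all genes 1702 in place of 5064. The log2 fold changes of the other 6 under that term were -2.54 for Adipoq, -1.95 for Plin1, -2.16 for Cfd, -2.18 for Retn, -2.26 for Lep and -2.18 for Pck1, with adjusted p of 0.0614 to 0.160.

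The same direction was seen in the other age comparisons with fewer calls. In vehicle-treated CON, no member passed by edgeR or DESeq2, where 1.02% of all genes did. That share was 138 genes, and it was 942 genes without 9mCON replicate 5 and 30 without 9mCON replicate 2. For the members, 9 of 10 log2 fold changes were negative with a median of -0.88 against 0.01 over all genes. Cyp2e1 had the most negative value (-1.73 ± 0.57, adjusted p = 0.114), and it was the only member (1 of 10) with an unadjusted p under 0.05. In rapamycin-treated CON, Cidec (-2.28 ± 0.69, adjusted p = 0.0230) and Cyp2e1 (-2.08 ± 0.64, adjusted p = 0.0243) were lower at 9 months, 2 of 10 where 8.58% of all genes were. Leaving out single libraries gave 0 calls in 4 of 10 fits (without 3mCON+RM replicate 4 or 9mCON+RM replicate 1, 2 or 5), 1 without 3mCON+RM replicate 1, and 6 without 9mCON+RM replicate 3.

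In rapamycin-treated TSCmKO, 6 of 10 members were lower at 9 months, where 11.4% of all genes were. Pck1 had -2.43 ± 0.78 (adjusted p = 0.0226), Lep -2.40 ± 0.81 (0.0289), Cfd -2.01 ± 0.66 (0.0257), Cidec -1.99 ± 0.70 (0.0363), Plin1 -1.88 ± 0.59 (0.0200) and Adipoq -1.79 ± 0.66 (0.0479). Retn, at 3.21, 0.634, 0.0544, 4.27 and 1.10 CPM in 9mTSCmKO+RM, Cyp2e1, Car3 and Fabp4 did not pass. With only these 2 groups in the fit, the count was again 6 but Adipoq (adjusted p = 0.0768) and Cfd (0.0886) were lost, Cyp2e1 was called as lower (-1.50, 0.0126) and Fabp4 as higher (0.60, 0.00881). Fabp4 ranged from 145 to 214 CPM at 3 months and from 224 to 355 CPM at 9 months, without overlap (0.63 ± 0.28, adjusted p = 0.0996). Leaving out single libraries took the count to 2 or fewer in 6 of 10 fits. It was 0 without 9mTSCmKO+RM replicate 2 or 5, 1 without 9mTSCmKO+RM replicate 3 or 3mTSCmKO+RM replicate 5, and 2 without 9mTSCmKO+RM replicate 1 or 3mTSCmKO+RM replicate 3. It was 4 without 3mTSCmKO+RM replicate 4 and 7 without 9mTSCmKO+RM replicate 4. With insert size as a term, no member was called in either rapamycin-treated age comparison (adjusted p of 0.114 or more in TSCmKO and 0.0713 or more in CON), and over all genes 1659 in place of 3087 and 1320 in place of 1980 were. That fit also left out 9mTSCmKO+RM replicate 5, which has no insert size, and this omission alone gave 0 in TSCmKO. For the members in TSCmKO, the term and the omission therefore cannot be told apart. Under that term, TSCmKO had -2.49 for Pck1, -1.93 for Cidec, -1.85 for Plin1, -1.66 for Cfd, -1.48 for Adipoq and -1.40 for Lep, and CON had -2.41 for Cidec and -1.96 for Cyp2e1.

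Markers of several other cell types were also lower at 9 months in some of the age comparisons. In TSCmKO with vehicle, 6 of 8 tendon markers (median -2.57), 8 of 12 markers of fibro-adipogenic progenitors (-0.80), 5 of 9 endothelial markers (-0.43) and 4 of 5 red blood cell markers (-2.14) were lower at 9 months, where 18.3% of all genes were. The summed tendon level was 114 to 343 TPM in 3mTSCmKO and 45.6 to 92.9 TPM in 9mTSCmKO, and that of the progenitor markers 1047 to 1884 and 428 to 919 TPM. The red blood cell sums overlapped, at 1383 to 28731 TPM (median 2566) in 3mTSCmKO and 816 to 3350 TPM (median 1193) in 9mTSCmKO. The endothelial sums also overlapped (273 to 295 and 183 to 302 TPM). In rapamycin-treated CON, 7 of 8 tendon, 11 of 12 progenitor and 8 of 10 macrophage markers were lower, and in rapamycin-treated TSCmKO 7, 12 and 8. Over all genes, 8.58% and 11.4% were lower there. With vehicle in TSCmKO, macrophage sums overlapped (72.1 to 146 TPM at 3 months, 70.3 to 131 TPM at 9 months). In vehicle-treated CON, tendon sums (101 to 601 and 61.4 to 392 TPM) and progenitor sums (1238 to 2507 and 1004 to 2214 TPM) overlapped. Within groups, the mean of the 6 adipocyte markers followed the tendon markers with r = 0.30 and the progenitor markers with 0.21. With insert size as a term, a setting added after the data were seen, 5 tendon, 6 progenitor, 2 endothelial and 0 red blood cell markers were lower in TSCmKO with vehicle. There 1 tendon marker was higher. Under the same term, 7 tendon, 11 progenitor and 8 macrophage markers were lower in rapamycin-treated CON and 7, 11 and 7 in rapamycin-treated TSCmKO. The part of these shifts in the levels of the adipocyte markers was not tested.

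None of the 4 interactions passed for any member by edgeR or DESeq2, and none had an unadjusted p under 0.05. For genotype by age in vehicle-treated mice, where 4.94% of all genes passed, the values were -1.86 ± 0.94 for Adipoq (adjusted p = 0.273), -1.98 ± 1.12 for Lep (adjusted p = 0.333) and 0.60 ± 0.55 for Car3 (adjusted p = 0.581). The lower Adipoq and Lep of 9mTSCmKO were therefore not shown to differ from the genotype effect at 3 months. For rapamycin by genotype, 4.87% of all genes passed at 9 months and 3.45% at 3 months, and for rapamycin by age in CON 0.938%. Cyp2e1 had -0.70 ± 0.78 for rapamycin by genotype at 3 months (adjusted p = 0.772).

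Of 13 further adipocyte markers tested, 2 were higher and 2 lower in 9mTSCmKO than in 9mCON (median -0.41), and 2 were lower in TSCmKO with age. Over all genes, 19.1% were higher and 18.9% lower between genotypes and 18.3% lower with age, so that none of these counts exceeded the general share. Within groups their mean followed that of the 6 members with r = 0.89. The list was not limited to genes restricted to fat cells. Its 14 genes in the table summed to 445 to 640 TPM in 9mCON, against 37.1 to 61.6 TPM for the 6 restricted markers. Which cells that level came from was not tested. Thrsp, a regulator of lipogenesis, was higher in TSCmKO at both ages (2.28, adjusted p = 1.49e-09, and 2.17, adjusted p = 1.13e-08), as Car3 was. Cd36, the fatty acid transporter, was higher at 9 months (0.52, adjusted p = 0.00778). Sncg was lower at both ages (-0.58, adjusted p = 0.0316, and -0.68, adjusted p = 0.0248). Plin4 (-0.45) and the hormone-sensitive lipase Lipe (-0.41) did not pass.

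Of 4 adipocyte transcription factors in the table, 2 were lower in 9mTSCmKO, Srebf1 (-0.69, adjusted p = 0.000474) and Zfp423 (-0.41, adjusted p = 0.0458). Pparg, the master factor of adipocyte differentiation, had -0.26 (adjusted p = 0.463) and -0.18 with age in TSCmKO (adjusted p = 0.610), and followed the 6 members with r = 0.56 within groups. Of 13 genes of lipid synthesis and storage, 2 were higher and 2 lower in 9mTSCmKO, and 8 were lower and 1 higher with age in TSCmKO. The first pair of counts was near the shares over all genes just given, and the 8 lower with age, against 18.3% of all genes, became 3 with insert size as a term. Among the most abundant, Gpd1, which makes glycerol 3-phosphate, had -1.0 (adjusted p = 3.73e-06) and the malic enzyme Me1 -0.45 (adjusted p = 0.00587). Of 11 genes of lipolysis and the lipid droplet, 4 were higher and 1 lower, with Plin2, the droplet protein of non-adipose cells, at 1.25 (adjusted p = 1.06e-09) and the lipase Pnpla2 at 0.50 (adjusted p = 0.00161).

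Brown and beige markers gave no call between genotypes at 9 months among the 6 tested (by edgeR). Ucp1, the uncoupling protein of brown fat, was listed at 0 in every library of 6 groups and at no more than 0.271 TPM in any library. Of 6 genes for receptors of adiponectin, leptin, resistin and insulin, 2 were lower in 9mTSCmKO, where 18.9% of all genes were. These were Adipor2 (-0.53, adjusted p = 0.000368) and the adiponectin-binding cadherin Cdh13 (-0.56, adjusted p = 0.000344), while Adipor1 (-0.03) and Insr (-0.31) did not pass.

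Of 17 paralogs of the members tested, 3 were higher and 3 lower in 9mTSCmKO, near the 19.1% and 18.9% of all genes. Fabp3, the muscle and heart relative of Fabp4, averaged 1664 TPM, against 543 TPM for Fabp4, and was higher in TSCmKO at 9 months (1.43, adjusted p = 0.000610) and 3 months (0.97, adjusted p = 0.0287). Among carbonic anhydrases, Car14 was lower at both ages (-1.01, adjusted p = 0.000212, and -0.93, adjusted p = 0.00109), opposite to Car3. Car4 and Car2 did not pass (0.28 and 0.76 at 9 months). C1qtnf9, a relative of Adipoq, was at -0.17 (adjusted p = 0.549). Markers of Schwann cells (2 of 8 lower), macrophages (1 of 10 higher and 1 lower), red blood cells (0 of 5 called) and fast fibers (5 of 12 lower) complete the lists for 9mTSCmKO against 9mCON, and the 1 skin marker tested was not called.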

How the data were processed

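EDL muscle RNA from 40 mice was sequenced as single-end directional libraries. The authors trimmed adapters with Cutadapt 1.9.1. Estimated counts were made by the authors, who aligned reads with kallisto 0.43.1 to protein-coding transcripts of GRCm38, split a read equally among the transcripts it matched and summed per gene before the files were deposited. The deposited TPM values were made by the authors from these counts and transcript lengths.

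Estimated counts were rounded. Genes with at least 1 CPM in 5 libraries (13543) were fitted in edgeR 4.0.16 (R 4.3.3) with TMM factors, 8 group means and robust quasi-likelihood F-tests (two-sided). P-values were adjusted over all of them by Benjamini-Hochberg for each of 16 contrasts (12 pairs and 4 interactions, threshold 0.05). SE was the log2 fold change divided by the root of F. Fits were tested on simulated data. Alternatives were upper-quartile factors, DESeq2 1.42.0, no filter, limma 3.58.1 on log2(TPM + 1), only the groups compared, insert size, replicate number, and single libraries left out. CON were littermates, but nothing in the labels names litters, so litter was not modelled. P-values measure the spread between libraries, with 1 library per mouse, and treat mice as independent. Comparisons that share a group are not independent.

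The members and all lists were chosen with earlier results of these data known. Named beside the members are the 10 tested genes most correlated with the 6 restricted markers, and from each list up to 4 genes of highest TPM, those passing in both vehicle genotype contrasts, and paralogs. The neighbours of Fabp4 and Car3 and Ucp1 were named after their values were seen. Trarg1 was matched through its older symbol Tusc5. Symbols Pnpla3, Cebpa, Cebpb, Cldn5 and Retnlb were not matched and not used here. Lists count tested genes. No value column was left unused (0 columns).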

Additional observations from a re-analysis of the deposited data

Results flagged for a closer look

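In 14 of the 80 combinations of member and group, 1 library stood apart from the other 4 by more than 0.71 of the range of its group (Dixon's criterion), all of them upward. For normally distributed values chance gives about 1 in 20. The criterion was applied to CPM without logs, so that share need not hold here and the 14 cannot be set against it. The combinations are also not independent, since members of 1 library move together. In 3mCON replicate 3, Plin1 stood at 15.7 CPM (next library 5.24), Retn stood at 8.63 CPM (next library 2.87) and Car3 stood at 2619 CPM (next library 482). In 9mTSCmKO replicate 1, Plin1 stood at 3.38 CPM (next library 1.56). In 3mTSCmKO replicate 4, Cfd stood at 71.2 CPM (next library 22.8), Retn stood at 9.69 CPM (next library 3.80), Cidec stood at 19.4 CPM (next library 4.78), Pck1 stood at 16.7 CPM (next library 3.85) and Cyp2e1 stood at 63.1 CPM (next library 12.3). In 3mTSCmKO+RM replicate 5, Cfd stood at 73.0 CPM (next library 29.8). In 9mTSCmKO+RM replicate 4, Lep stood at 1.38 CPM (next library 0.115) and Pck1 stood at 2.62 CPM (next library 0.346). In 9mCON replicate 2, Cidec stood at 5.58 CPM (next library 2.78) and Pck1 stood at 3.70 CPM (next library 2.27). The 14 values came from 6 libraries, and 5 of them from 3mTSCmKO replicate 4. Markers that stood apart in that library did not include Car3, at 4067 CPM, the highest of its group. No interaction was called for any member.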

How the results depend on the processing

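The number of members called was the same or within 1.5 times under upper-quartile factors, DESeq2 and the replicate block in every comparison. With the block, 6 of 8 stayed called in 9mTSCmKO against 3mTSCmKO, and Retn and Pck1 were lost. The labels share replicate numbers between groups, but same-numbered libraries deviated with a median correlation of -3.01e-05 (140 pairs, 34 above 0.1), and 6 of 40 libraries were most like one of their own number, so that the numbers are only names. With only the groups compared, 5 members were called in 9mTSCmKO against 9mCON (3 in the common fit), where Cfd, Cidec and Cyp2e1 were gained and Lep was below the filter, 0 in 3mTSCmKO against 3mCON (1) and 0 in 3mTSCmKO+RM against 3mTSCmKO (1). With limma on log2(TPM + 1), 0 were called in 3mTSCmKO+RM against 3mTSCmKO and 5 in 9mCON+RM against 3mCON+RM (2). With insert size as a term, which left out 9mTSCmKO+RM replicate 5, 2 were called in 9mTSCmKO against 3mTSCmKO (8), 0 in 9mCON+RM against 3mCON+RM and 0 in 9mTSCmKO+RM against 3mTSCmKO+RM (6). In the last of these, leaving out that library without the term also gave 0. With the term, fold changes kept their sign for all members that lost a call, and stayed close for most (Adipoq -2.54 against -2.61 with vehicle in TSCmKO, Pck1 -2.49 against -2.43 with rapamycin), with Lep smaller (-1.40 against -2.40 with rapamycin). Without the filter on low counts, 3 were called in 9mTSCmKO+RM against 3mTSCmKO+RM. Without the library of each group that was highest in the 6 restricted markers, a choice made after seeing the data and by the measure itself, 5 were called in 9mTSCmKO against 9mCON, 3 in 9mTSCmKO+RM against 9mCON+RM (1), 1 in 9mTSCmKO+RM against 9mTSCmKO (0), 0 in 3mTSCmKO+RM against 3mTSCmKO, 2 in 9mCON+RM against 9mCON (0) and 6 in 9mCON+RM against 3mCON+RM. The cause was not tested.

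Leaving out 1 library at a time gave 2 to 3 members in 9mTSCmKO against 9mCON, 1 to 3 in 9mTSCmKO+RM against 9mCON+RM, 0 to 1 in 9mTSCmKO+RM against 9mTSCmKO and in 3mTSCmKO+RM against 3mTSCmKO, 5 (Fabp4 as higher among them without 3mTSCmKO replicate 4) to 8 in 9mTSCmKO against 3mTSCmKO, 0 to 6 in 9mCON+RM against 3mCON+RM and 0 to 7 in 9mTSCmKO+RM against 3mTSCmKO+RM, and no change elsewhere. The median r among the 6 restricted markers was 0.84, 0.82 on log2(TPM + 1), 0.74 without the library highest in all 10 members and 0.65 without that highest in the 6. Of 3305 log2 fold changes of single members under alternatives, 0 reversed a call, 100 lost one and 32 gained one.

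Over all genes, the count of calls moved by more than 1.5 times in 9mTSCmKO against 9mCON (5133; 2647 to 5466), 3mTSCmKO+RM against 3mCON+RM (1359; 997 to 2495), 9mTSCmKO+RM against 9mTSCmKO (4410; 2544 to 4609), 9mCON+RM against 9mCON (1604; 554 to 1985), 3mCON+RM against 3mCON (92; 23 to 419), 9mCON against 3mCON (138; 15 to 942), 9mTSCmKO against 3mTSCmKO (5064; 1702 to 5365), 9mTSCmKO+RM against 3mTSCmKO+RM (3087; 1659 to 3300), genotype by age, vehicle (669; 312 to 996), rapamycin by genotype, 9 months (660; 209 to 929), rapamycin by genotype, 3 months (467; 331 to 1194) and rapamycin by age, CON (127; 37 to 267); values in brackets are the count in the common fit and the range over all these settings, single libraries left out included. Single libraries moved it by that much in 9mCON against 3mCON (942 without 9mCON replicate 5, 30 without replicate 2; 5 other libraries gave 47 to 71), 3mCON+RM against 3mCON (38 without 3mCON+RM replicate 4, with 6 other libraries also past it), and rapamycin by age in CON (37 without 9mCON+RM replicate 2, 267 without replicate 3, with 12 other libraries also past it). Lep, with 3 or fewer counts in 4 of 5 9mTSCmKO libraries, is the member most limited by depth.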

Other observations

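The genes most like Fabp4 and Car3 within groups were looked up after the data were seen. Fabp4 was most like Tomm7, a subunit of the mitochondrial import pore (r = 0.87 over 40 libraries), the cytochrome c oxidase subunit Cox7b (0.86) and the ribosomal protein gene Rps23 (0.85), and most opposite to Ap2a2 (-0.90), Fto (-0.88) and the large ubiquitin ligase Ubr4 (-0.87). None of these 6 genes passed the threshold in 9mTSCmKO against 9mCON by edgeR (adjusted p of 0.188 for Fto and above for the others).

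Car3 was most like Mss51, a muscle mitochondrial regulator (r = 0.79), Ppp1r27 (0.66) and Cdkn2c (0.66), and most opposite to the homeobox gene Irx5 (-0.77). Mss51 had a log2 fold change of -0.76 in 9mTSCmKO (adjusted p = 0.424) and -1.96 in 3mTSCmKO (adjusted p = 0.0598). Cdkn2c, an inhibitor of cyclin-dependent kinases, was lower in 9mTSCmKO at -1.20 (adjusted p = 9.14e-06) and in 3mTSCmKO at -0.68 (adjusted p = 0.0104), the sign opposite to Car3. Rasd2 (r = 0.64), a small GTPase gene, was higher in 9mTSCmKO at 4.45 (adjusted p = 6.37e-12) and in 3mTSCmKO at 5.06 (adjusted p = 2.12e-12), the sign of Car3. Ppp1r27 had 0.62 and -0.22 and did not pass.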
